A study of Mus musculus with 6 samples.

Results

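The insulin-like growth factor (IGF) family was examined in the incisors of mice that had lost Fgfr1, a receptor for fibroblast growth factors, from Gli1+ cells. The family was taken as 10 genes by name: the ligands Igf1 and Igf2, the receptors Igf1r and Igf2r, and the binding proteins Igfbp2 to Igfbp7. All 10 are among the 19060 genes of the deposited count table. IGF1 and IGF2 are secreted growth factors that signal through IGF1R, a receptor tyrosine kinase, while IGF2R carries IGF2 to the lysosome and does not signal as a kinase. The binding proteins hold the ligands in the matrix and the circulation and set how much of them reaches the receptor. In teeth and bone the pathway is known for supporting growth and the formation of mineralised tissue.

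RNA was sequenced from the proximal end of the incisor, which in mice grows throughout life. The 3 control mice carried Fgfr1 alleles flanked by loxP sites (Fgfr1fl/fl, entered as wild type in the genotype labels) and no Cre, and the 3 mutants were Gli1-Cre;Fgfr1fl/fl, with a tamoxifen-inducible Cre driven from Gli1. Control and mutant mice both received tamoxifen, are labelled as 1 month of age, and were sampled 1 week after induction. Cre is active only where Gli1 is expressed, so Fgfr1 can remain in the other cells of the tissue, and an effect of Cre itself cannot be told apart from the loss of Fgfr1 because the controls lacked Cre. The labels do not say that each sample is a separate animal, so p-values measure the spread between these samples.

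The control samples held between 31060207 and 32712454 counts and the mutant samples between 5276568 and 11819566, so that every mutant library was shallower than every control library. Library depth therefore went with genotype, and the effects of depth and genotype cannot be told apart by this design. Levels are given as CPM, edgeR's counts at a common library size after upper-quartile scaling. Fgfr1 had 529, 924 and 434 CPM in the controls and 148, 318 and 262 CPM in the mutants, with no overlap, a log2 fold change of -1.37 (standard error, SE, 0.40) and an adjusted p of 0.0881 (edgeR, Benjamini-Hochberg). The adjusted p of Fgfr1 was 0.00323 with DESeq2, and its log2 fold change was -0.99 without control replicate 2. In each sample, the deviation from the average level depended on transcript length and GC content, and this trend took up between 4.92% of the variance over genes in mutant 2 and 36.5% in control 2. With the trend entered as an offset in edgeR, the log2 fold change of Fgfr1 was -0.85 (adjusted p = 0.202), and values with this length and GC offset are given beside the results that it moved most. All 6 odontoblast markers were detected in every sample, and of the 8 markers of dental mesenchyme and follicle Fgf3 and Fgf10 were at 0 in mutant 1. Skeletal muscle markers summed to 9.41, 2586 and 27.2 CPM in the controls and 5644, 138 and 916 CPM in the mutants, so muscle RNA was prominent in control 2 and in mutants 1 and 3, with Myh2 or Myh4 at 0 in some samples. The summed level of 8 epithelial markers ran from 85851 to 121477 CPM in the controls and from 31913 to 70189 CPM in the mutants. None was at 0, and 4 of the 8 lay below all controls in every mutant, against 16.3% of all genes tested. The summed level of 6 erythroid markers ran from 380 to 823 CPM in the controls and from 926 to 2559 CPM in the mutants. Of the 6, 1 marker, Hba-a1, lay the other way, below all controls in every mutant. The epithelial and erythroid sums moved with genotype, while the muscle sums overlapped between the genotypes. The part of such differences in tissue makeup in the results on the IGF family was not tested. In bulk tissue, fewer cells of a type and less RNA per cell cannot be told apart.

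No member of the family passed an adjusted p of 0.05, against 6.79% of the 15826 genes tested (two-sided quasi-likelihood test of edgeR, Benjamini-Hochberg adjustment over all genes tested). All 10 members passed the filter on low counts in edgeR. At the threshold the study used, which is p under 0.05 before adjustment together with more than 1.5-fold, 1 member, Igf1, was higher in the mutants, against 10.9% of all genes, and 0 members were lower, against 8.92% of all genes. A count of 1 in 10 is close to that background. Which member passed depended on the scaling: with TMM or total counts alone it was Igf2r, lower in the mutants, in place of Igf1, and with the length and GC offset it was Igf2, higher, in place of Igf1. DESeq2 also gave 0 members at an adjusted p under 0.05 and 2, Igf1 and Igf2, past the unadjusted threshold. Log2 fold changes were positive for 5 members and negative for 5, with a median of 0.045 against -0.040 over all genes tested. The sign of that median depended on the scaling: it was -0.050 with TMM and -0.23 with total counts alone, settings that moved the median of all genes to -0.13 and -0.30.

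**Figure D1:**
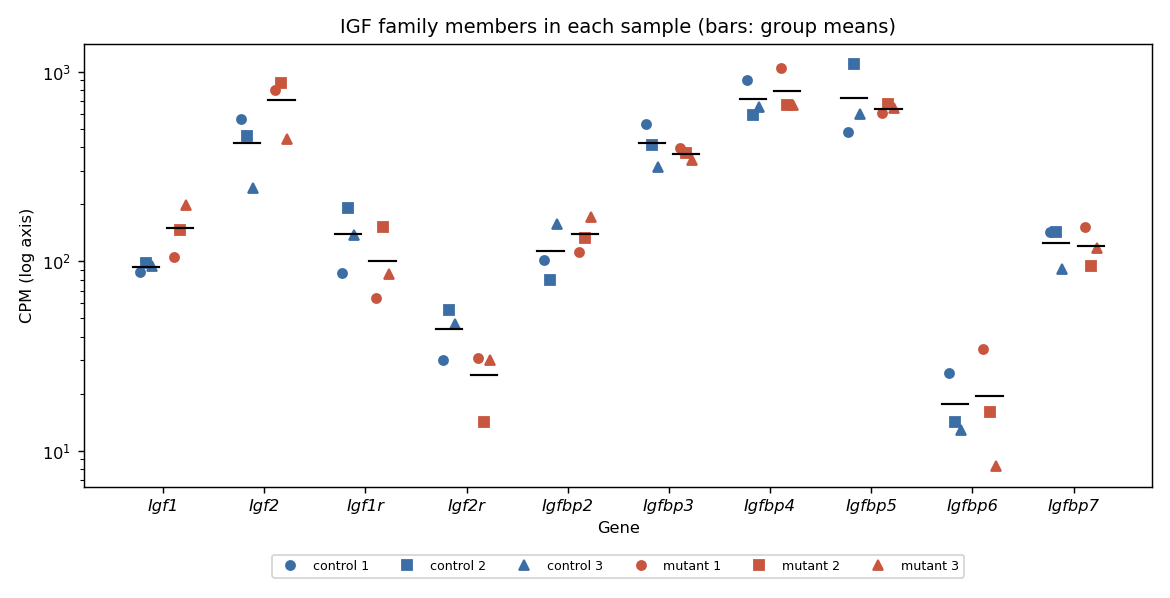
Level of each of the 10 IGF family genes in CPM (vertical axis, log scale) in the 3 control samples (blue) and 3 mutant samples (red), with a marker shape for each replicate number and a black bar at the group mean. Igf1 is the only member whose mutant samples all lie above its control samples, and the points of the other 9 members overlap between the genotypes.

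Igf1, on chromosome 10 of GRCm38 from 87858265 to 87937042 on the plus strand, encodes the ligand that circulates from liver under growth hormone and is also made locally in many tissues. It had 88.0, 97.8 and 94.6 CPM in control samples 1, 2 and 3 and 105, 146 and 199 CPM in mutant samples 1, 2 and 3. All 3 mutants lay above all 3 controls, as did 14.1% of all genes tested, and the mutants spread far more widely (93.5 ± 5.01 CPM in controls and 149.7 ± 47.1 CPM in mutants, mean ± SD, n = 3 each). The log2 fold change was 0.68 (SE 0.27, 95% interval 0.055 to 1.31), which is 1.60-fold, with an adjusted p of 0.209 (0.0365 before adjustment, edgeR).

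The Igf1 transcript is long and poor in GC (7052 bases in its longest form, 38.0% GC), and over the whole table the length and GC trend alone gave genes of this kind a log2 difference of 0.66. When that trend was entered as an offset, the log2 fold change of Igf1 was -0.016, with an adjusted p of 0.987 (edgeR). Mutant replicate 3, the highest sample, also weighed on the value, which was 0.41 without it and between 0.64 and 0.86 without any other sample. Across 15 alternative settings the adjusted p of Igf1 ran from 0.0814 to 0.987, so the difference did not pass the adjusted threshold in any of them. The antisense gene Igf1os overlaps the start of Igf1 and had 13, 15 and 7 counts in the controls and 0 in each mutant, against between 480 and 3560 counts for Igf1 itself. Its control levels, at most 0.412 CPM, lay below the 0.655 CPM that a count of 0 still allows in mutant 1. The sources used here do not say whether the library kept strand, but these counts are too few to move the level of Igf1.

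Igf2, on chromosome 7 from 142650766 to 142666816 on the minus strand, is an imprinted gene expressed from the paternal allele and encodes the ligand best known from fetal growth. It had 562, 456 and 244 CPM in the controls and 801, 874 and 443 CPM in the mutants. Mutants 1 and 2 lay above every control, while mutant 3 lay below controls 1 and 2. The log2 fold change was 0.75 (SE 0.40, 95% interval -0.16 to 1.66), with an adjusted p of 0.350 (edgeR). The estimate was therefore larger than that of Igf1 and less certain, since control 3 and mutant 3 each stood apart from the rest of their group.

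The length and GC trend ran the opposite way for the ligands. For Igf2, whose longest transcript has 4722 bases and 55.8% GC, the trend gave a log2 difference of -0.50, and the offset raised its log2 fold change to 1.23, with an adjusted p of 0.180 (0.0188 before adjustment, edgeR). Without control replicate 3 the log2 fold change was 0.47, the lowest among the alternatives. A gene model on the same strand, Gm49394, covers Igf2 and had 27, 1 and 8 counts in the controls and 0 in the mutants, and adding it to Igf2 left the log2 fold change at 0.75. The paternal and maternal alleles cannot be told apart in these counts. Summed per kilobase of longest transcript, the ligands came to 131, 110 and 65.1 CPM per kilobase in the controls and 185, 206 and 122 in the mutants. Mutant 3 lay inside the control range, and the difference in means did not pass an exact two-sided permutation test over the samples (p = 0.2, adjusted p = 1 over the 11 shares and sums compared; the smallest p that 3 samples against 3 allow is 0.1).

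Igf1 made up a minor share of the ligand level within each sample. As a share of Igf1 plus Igf2, per kilobase, it was 9.50, 12.6 and 20.6% in the controls and 8.05, 10.04 and 23.1% in the mutants. The replicates within each genotype differed by far more than the genotypes did, with a difference in means of -0.49 percentage points (exact two-sided permutation test, p = 0.9). Because the trend acted on the ligands in opposite ways, dividing the counts by it moved the difference to -10.4 points (p = 0.2, exact permutation test).

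**Figure D2:**
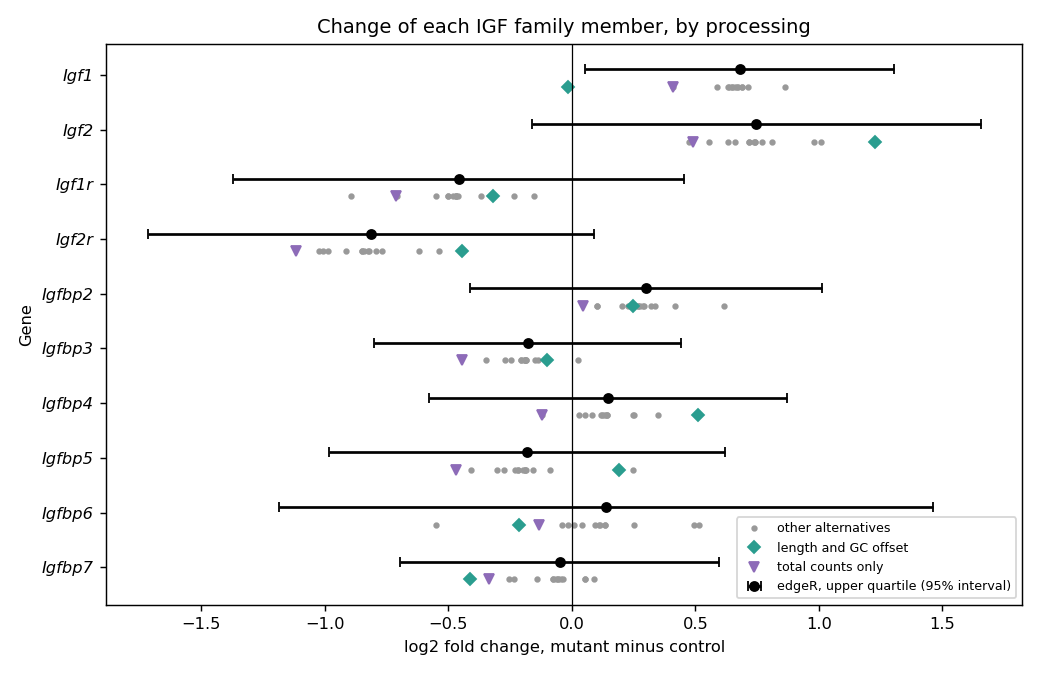
Log2 fold change, mutant minus control, of each IGF family gene (horizontal axis), with the edgeR estimate and its 95% interval in black and the 15 alternative settings beneath it (grey points, green diamonds for the length and GC offset, purple triangles for total counts alone). The interval of Igf1 is the only one that excludes 0, and its green diamond sits at -0.016.

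Igf1r and Igf2r had negative log2 fold changes in the edgeR fit and in each of the 15 alternatives, though neither passed the adjusted threshold in any of them. Their promoters are printed because they are the members of a shared role that kept a shared sign in all settings. Each is the 250 bases upstream of the RefSeq start site on GRCm38.p6, read 5′ to 3′ on the strand of the gene. Neither window reaches into its own gene in GENCODE M21, but the Igf2r window lies inside the antisense gene Airn. The capitals mark matches to GGGCGG, the core of the GC box bound by SP1, on either strand.
Igf1r, chr7:67952007-67952256, plus strand: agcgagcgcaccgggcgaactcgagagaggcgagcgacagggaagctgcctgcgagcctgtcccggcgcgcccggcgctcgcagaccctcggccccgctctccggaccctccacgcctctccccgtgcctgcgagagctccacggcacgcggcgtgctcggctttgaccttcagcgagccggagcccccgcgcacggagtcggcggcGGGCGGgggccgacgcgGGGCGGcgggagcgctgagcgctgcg
Igf2r, chr17:12769707-12769956, minus strand: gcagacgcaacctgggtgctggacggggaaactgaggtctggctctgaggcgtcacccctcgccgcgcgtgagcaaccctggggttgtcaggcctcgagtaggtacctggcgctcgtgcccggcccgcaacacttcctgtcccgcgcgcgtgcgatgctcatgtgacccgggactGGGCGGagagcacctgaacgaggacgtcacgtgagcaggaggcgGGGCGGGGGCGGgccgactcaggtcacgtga
The Igf1r window has 77.6% GC, 42 CpG dinucleotides and 2 matches to GGGCGG, and the Igf2r window has 69.2% GC, 27 CpG dinucleotides and 3 matches. Over 32841 RefSeq promoter windows of this length the median was 52.4% GC and 6 CpG dinucleotides, and 32.7% held GGGCGG. Neither window holds TATAAA, which 12.4% of all windows have, or CCAAT, which 33.9% have, on either strand. RNA counts do not measure binding or methylation at these sequences, so the matches are a description only.

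Igf1r, on chromosome 7 from 67952827 to 68233668 on the plus strand, had 86.3, 191 and 138 CPM in the controls and 64.2, 152 and 86.0 CPM in the mutants. The genotypes overlapped, with the highest mutant above 2 of the 3 controls. The log2 fold change was -0.46 (SE 0.40, 95% interval -1.37 to 0.46) and the adjusted p 0.608 (edgeR). The interval leaves room for a loss of over 2-fold as well as for a small gain. Leaving out control replicate 2, the highest sample, moved the log2 fold change to -0.15, and leaving out mutant replicate 2 moved it to -0.90.

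Igf2r, on chromosome 17 from 12682406 to 12769664 on the minus strand, encodes the receptor that also sorts lysosomal enzymes by their mannose 6-phosphate tags, and in mice it is expressed mainly from the maternal allele. It had 30.2, 55.2 and 46.7 CPM in the controls and 31.0, 14.2 and 30.2 CPM in the mutants. Mutants 1 and 3 were at the level of control 1, the lowest control, and mutant 2 lay below all other samples. The log2 fold change was -0.81 (SE 0.39, 95% interval -1.72 to 0.091), with an adjusted p of 0.302 (0.0719 before adjustment, edgeR), the largest negative estimate in the family. It was -1.12 with total counts alone, -0.44 with the length and GC offset and -0.54 without mutant replicate 2. The antisense RNA Airn, which overlaps Igf2r and is part of its imprinting, had 46, 44 and 51 counts in the controls and 46, 39 and 3 in the mutants, against between 142 and 2007 counts for Igf2r. In mutants 1 and 2 the Airn counts therefore came to a sizeable part of the Igf2r counts of 142 and 166, and without strand, reads in the shared stretch cannot be told apart.

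Per kilobase, the receptors together had 11.0, 23.0 and 17.4 CPM in the controls and 9.11, 14.9 and 10.9 CPM in the mutants, which overlapped (exact two-sided permutation test, p = 0.2). Igf1r held 69.0, 73.0 and 69.7% of that sum in the controls and 61.7, 89.3 and 68.9% in the mutants (exact permutation test, p = 1). The controls lay close together, while mutant 2 was far above and mutant 1 below them, so the genotypes had similar means and very different spreads. Control 2, the highest sample for Igf1r and Igf2r, was also the highest for Fgfr1, for the bone and dentin collagen gene Col1a1 (50909 CPM, against 18511 and 24634 in the other controls) and for the dentin gene Dspp (7742 CPM, against 2388 and 1590). Not every marker of these tissues was highest there. Bglap had 4518 CPM in control 2, against 6590 in control 1, and Dkk1 had 19.9 CPM, against 23.3 and 40.9 in the other controls. Control 2 also had the strongest length and GC trend, at 36.5% of the variance. The part of tissue makeup in the receptor levels was not tested.

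For the 6 binding protein genes no difference between genotypes passed a test. Their log2 fold changes lay between -0.18 and 0.30, none had an unadjusted p under 0.05, and control and mutant samples overlapped for each. With the length and GC offset they lay between -0.41, for Igfbp7, and 0.51, for Igfbp4, and again none passed. The intervals still allowed changes of over 1.5-fold in at least 1 direction for all of them. Changes of that size could therefore be missed with 3 samples a group. On simulated counts the test recovered only 50% of 200 genes changed 4-fold. That simulation covered 15826 genes, so its rate is not specific to the binding proteins. For these 6 genes the edgeR intervals excluded a 4-fold change. The widest interval, that of Igfbp6, ran from -1.19 to 1.46 in log2 fold change.

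Igfbp2, on chromosome 1 from 72824503 to 72852474, encodes a binding protein that also binds integrins through an RGD motif. It had 101, 79.4 and 157 CPM in the controls and 112, 132 and 172 CPM in the mutants, with a log2 fold change of 0.30 (SE 0.31, adjusted p = 0.677, edgeR). Control 3 lay above mutants 1 and 2. Igfbp5 lies 5457 bases away in the opposite orientation, from 72857932 to 72874884, and encodes a binding protein that is abundant in bone matrix. It had 480, 1097 and 598 CPM in the controls and 604, 672 and 644 CPM in the mutants, with a log2 fold change of -0.18 (SE 0.35, adjusted p = 0.844, edgeR). The mutants were close together, and the control range was set by control 2: without it the log2 fold change was 0.25. Control 2 had the most Col1a1 and also the strongest length and GC trend (36.5% of the variance). With the offset the log2 fold change of Igfbp5 was 0.19. The log2 fold changes of these neighbours had opposite signs, and neither difference exceeded its replicate spread.

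Igfbp3, on chromosome 11 from 7206086 to 7213923, encodes the main carrier of IGFs in serum. It had 530, 413 and 313 CPM in the controls and 396, 371 and 343 CPM in the mutants, a log2 fold change of -0.18 (SE 0.27, adjusted p = 0.794, edgeR). The mutants lay within the control range. Igfbp4, on the same chromosome from 99041244 to 99054392, encodes a binding protein that holds IGFs until the protease PAPP-A cleaves it. It had 908, 594 and 653 CPM in the controls and 1052, 671 and 664 CPM in the mutants, a log2 fold change of 0.15 (SE 0.32, adjusted p = 0.860, edgeR). Replicate 1 was the highest sample in both groups, and the sign turned to -0.12 without mutant replicate 1 or with total counts alone.

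Igfbp6, on chromosome 15 from 102144362 to 102149511, encodes a binding protein with a preference for IGF2 and had the lowest mean CPM of the family. It had 25.7, 14.3 and 12.9 CPM in the controls and 34.3, 16.0 and 8.26 CPM in the mutants, a log2 fold change of 0.14 with the widest error of the family (SE 0.58, adjusted p = 0.933, edgeR). The lowest mutant value rests on 82 counts, and the sign turned under 5 of 15 alternatives. Igfbp7, on chromosome 5 from 77349240 to 77408041, encodes a related protein with low affinity for IGFs that is made by vessels. It had 143, 142 and 90.6 CPM in the controls and 151, 94.7 and 117 CPM in the mutants, a log2 fold change of -0.049 (SE 0.28, adjusted p = 0.956, edgeR). Polr2b reaches into the end of Igfbp7 on the other strand. The summed level of 6 endothelial markers overlapped between the genotypes (179 to 264 CPM in controls and 136 to 186 CPM in mutants). Of the 6, 2 markers, Pecam1 and Cdh5, lay below all controls in every mutant, against 16.3% of all genes tested. Above all controls in every mutant lay 0 of the 6, against 14.1% of all genes tested.

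Binding proteins were compared with each other only per kilobase of longest transcript. The pool came to 755, 700 and 607 CPM per kilobase in the controls and 781, 635 and 659 in the mutants, which overlapped (exact two-sided permutation test, p = 1). Igfbp4 and Igfbp3 led the pool in 5 of the 6 samples. The exception was control 2, in which Igfbp5 took 26.1% and was the leading member, with Igfbp4 at 22.1% and Igfbp3 at 24.4%. With the median transcript length in place of the longest, Igfbp4 took from 55.3 to 70.3% of the pool in every sample and Igfbp5 15.2% in control 2, so the makeup depends on the length used. Per kilobase of longest transcript, Igfbp5 took 10.6 and 16.4% in the other controls and 12.9, 17.6 and 16.3% in the mutants. The difference in means was -2.10 percentage points (exact two-sided permutation test, p = 0.8), and it turned to 0.757 points after division by the length and GC trend. The same division put the Igfbp5 share of control 2 at 19.8%. That division also put the Igfbp7 share below all controls in every mutant, at 12.3 ± 0.827% against 17.7 ± 4.59% (mean ± SD), where without it the groups overlapped, and the exact permutation test then gave p = 0.1, the smallest it can give. Igfbp6 stayed the smallest member, between 1.13 and 3.94% in every sample. None of the 6 shares passed the test, with exact permutation p-values from 0.3 to 0.8 and an adjusted p of 1 for each.

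**Figure D3:**
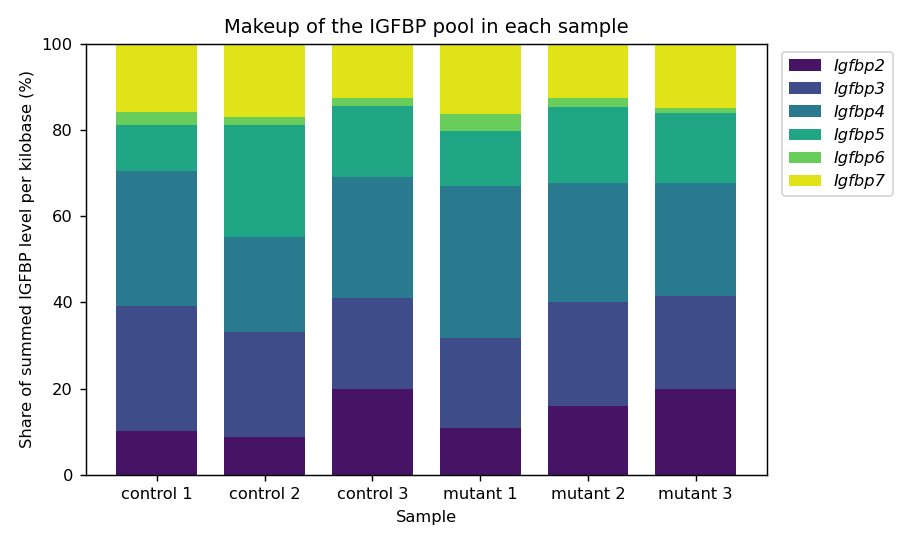
Makeup of the IGFBP pool in each of the 6 samples: stacked bars give each binding protein's share (percent, vertical axis) of the summed level per kilobase of longest transcript. Control 2 stands out by its share of Igfbp5 (26.1%), and the mutant bars fall within or close to the range of the controls.

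Across the family, per kilobase of longest transcript, the controls ran in the order Igfbp4 (187 CPM per kilobase), Igfbp3 (173), Igfbp5 (121), Igfbp7 (104), Igf2 (89.1), Igfbp2 (86.1), Igfbp6 (15.8), Igf1 (13.3), Igf1r (12.1) and Igf2r (4.96). Only the steps from Igfbp2 to Igfbp6 and from Igf1r to Igf2r exceeded the range of the samples, so the 6 leading genes were not separable from their neighbours, nor were the next 3. In the mutants Igf2, at 150 CPM per kilobase, stood between Igfbp3 and Igfbp5, and Igf1, at 21.2, stood above Igfbp6, at 17.5, but neither step exceeded the range of the samples. The order depends on which transcripts are made, which gene counts do not show. With the median transcript length of each gene in place of the longest, Igfbp4 still led, Igf2 moved to second place (439 CPM per kilobase in controls and 737 in mutants), and Igfbp6 became the lowest.

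The genes around the family were described by 8 lists: insulin relatives, IGF complexes and proteases of the binding proteins, proteins with an IGFBP domain, Igf2 imprinting and mRNA binding, the growth hormone axis, receptor substrates, the PI3K-AKT-FOXO arm and the RAS to MEK arm. Of 94 genes tested outside the family, 0 passed an adjusted p of 0.05 in edgeR, 14 had an unadjusted p under 0.05, and 12 of these also changed by over 1.5-fold, with 3 higher and 9 lower. Over all genes tested 19.8% passed that unadjusted threshold, so the 12 of 94 are fewer than the background share. DESeq2 called 8 of the 94 at an adjusted p under 0.05, against 10.2% of all genes. Total counts alone with edgeR called 3, against 7.18% of all genes, and leaving out mutant replicate 1 called 1, against 3.52%. The lists were written with earlier results of these data known.

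The arm from PI3K to AKT and FOXO, which carries IGF1R signals to metabolism and survival, was the largest list. Of its 23 genes, 5 were lower past the unadjusted threshold, against 8.92% of all genes, 1 was higher, against 10.9%, and 8 had every mutant below every control, against 16.3% of all genes tested. With the length and GC offset 2 were lower, Gsk3a and Gsk3b, against 8.49% of all genes, and 0 were higher, against 6.41%. Its median log2 fold change was -0.28, against -0.040 over all genes tested, and -0.26 with that offset, against -0.10.

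Gsk3b, a kinase that AKT inhibits, had 54.6, 93.8 and 84.9 CPM in the controls and 36.2, 33.2 and 46.1 CPM in the mutants, a log2 fold change of -1.01 (SE 0.28, adjusted p = 0.0775, edgeR). No mutant reached the lowest control, and the value with the length and GC offset was -0.96. The adjusted p of Gsk3b was 0.0302 with DESeq2. In edgeR it was 0.0432 with total counts alone and 0.108 without mutant replicate 1. The other 4 lower genes of the list, named because they complete its count, were Gsk3a (-1.09), Akt2 (-0.75), Akt1 (-0.72) and the transcription factor gene Foxo6 (-3.95, at a mean of 2.79 CPM in controls). With the offset, Gsk3a, Akt2, Akt1 and Foxo6 had log2 fold changes of -0.76, -0.31, -0.29 and -3.37. Their adjusted p-values with DESeq2 were 0.0227, 0.0358, 0.0451 and 0.173, where 10.2% of all genes were under 0.05.

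In the growth hormone axis, which drives Igf1 in liver, Socs2, a feedback inhibitor of the growth hormone receptor, had 24.0, 23.8 and 20.9 CPM in the controls and 51.3, 45.7 and 37.1 CPM in the mutants. Each mutant was above each control, with a log2 fold change of 0.96 (SE 0.27, adjusted p = 0.0824, edgeR) and 0.90 with the offset. The adjusted p of Socs2 was 0.0395 with DESeq2 and 0.195 in edgeR with total counts alone. Jak2, the kinase bound to that receptor, had 37.2, 45.6 and 32.7 CPM in the controls and 3.49, 23.2 and 21.9 CPM in the mutants, a log2 fold change of -1.23 (SE 0.60, adjusted p = 0.308, edgeR). All mutants were below all controls, by a margin that varied widely. The 8 genes of this axis tested had a median log2 fold change of -0.21, against -0.040 over all genes tested. Past the unadjusted threshold 1 was higher, against 10.9% of all genes, and 0 were lower, against 8.92%.

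Among the 12 genes tested of the RAS to MEK arm, 1 was lower past the unadjusted threshold, against 8.92% of all genes, and 0 were higher, against 10.9%. The median log2 fold change was 0.035, against -0.040 over all genes tested. With the length and GC offset 2 were lower, against 8.49% of all genes, and the median was -0.23, against -0.10 over all genes. Map2k2, which encodes the kinase MEK2, had a log2 fold change of -0.57 (adjusted p = 0.215, edgeR) and -0.17 with the offset. Both are under 1.5-fold, so it is in neither count. Of the 17 receptor substrates and adaptors, Irs2, a docking protein for insulin and IGF receptors, had a log2 fold change of -1.06 (adjusted p = 0.159, edgeR) and the adaptor Nck1 of 1.15 (adjusted p = 0.227, edgeR), both with overlapping groups. With the offset these were -0.43 and 0.59 and neither passed the unadjusted threshold. With it 2 other genes of the list were higher past that threshold, against 6.41% of all genes. They were Gigyf1 (1.59) and Gigyf2 (0.99), both named after their values were seen.

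The list of IGF complexes and proteolysis of the binding proteins gave 1 of 14 genes past the unadjusted threshold, against 19.8% of all genes tested. Mmp2, a matrix protease that can cleave binding proteins, had 282, 495 and 234 CPM in the controls and 182, 193 and 167 CPM in the mutants, a log2 fold change of -0.90 (SE 0.32, adjusted p = 0.154, edgeR). The mutants were all below the controls, and control 2 was again the highest sample. The adjusted p of Mmp2 was 0.0370 with DESeq2, and its log2 fold change was -0.51 without control replicate 2 and -0.60 with the offset, where no gene of the list passed the unadjusted threshold. Ctsd, a lysosomal protease, had a log2 fold change of -0.49 (adjusted p = 0.316, edgeR), and Pappa, whose product is PAPP-A, had -0.12 (adjusted p = 0.963, edgeR), a gene added here because of Igfbp4. Of 10 proteins with an IGFBP domain, the matricellular gene Ccn4 had a log2 fold change of -0.87 (adjusted p = 0.211, edgeR) and the serine protease gene Htra3 of -0.60 (adjusted p = 0.375, edgeR). With the offset these were -0.81 and -0.14. Leaving out control replicate 2 gave -0.64 for Ccn4, which then no longer passed the unadjusted threshold, and -0.34 for Htra3.

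H19, the maternally expressed RNA that lies 72622 bases from Igf2 and shares its imprinting control, had 155, 124 and 193 CPM in the controls and 108, 142 and 91.1 CPM in the mutants. Its groups overlapped, with a log2 fold change of -0.47 (SE 0.27, adjusted p = 0.398, edgeR), opposite in sign to that of Igf2, and -0.29 with the offset. Of the 11 genes tested for Igf2 imprinting and mRNA binding, 0 passed the unadjusted threshold in either direction, against 19.8% of all genes tested. Igf2bp3, an mRNA binding protein, had at most 2.47 CPM in any sample and a log2 fold change of -2.15 (SE 1.36, adjusted p = 0.443, edgeR). Among insulin relatives, 3 of the 5 genes in the table were tested and 0 passed the unadjusted threshold: the insulin receptor gene Insr had a log2 fold change of -0.074, and the low genes Insl6 and Rln1 had 1.21 and 0.82 with standard errors of 1.35 and 1.55, or -0.027 and 0.39 with the offset.

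**Figure D4:**
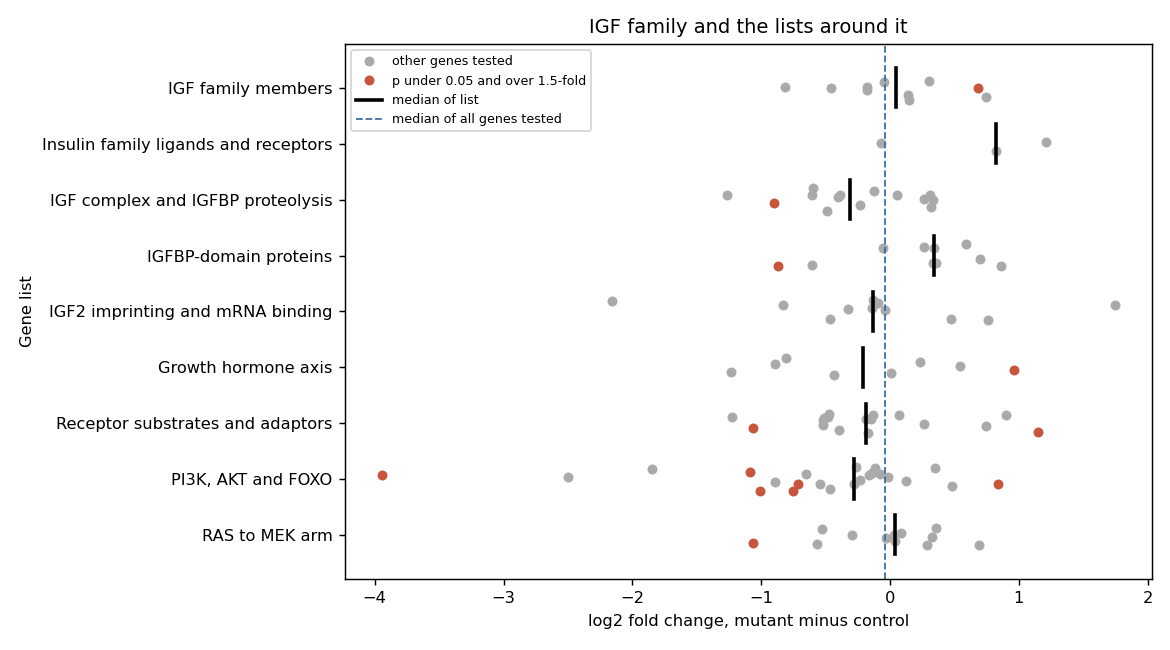
Log2 fold changes, mutant minus control (horizontal axis), of the genes tested in the IGF family and in the 8 lists around it; red points passed an unadjusted p under 0.05 and 1.5-fold, black ticks are list medians and the dashed line is the median of all genes tested (-0.040). The IGF family has 1 red point, and the PI3K, AKT and FOXO list has 6.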

How the data were processed

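Total RNA was sequenced from 3 control and 3 mutant proximal incisors. According to the study's methods the authors trimmed and aligned single reads in Partek Flow and scaled by the upper quartile. The submitters' processing notes list TopHat2 2.0.8 and mm10. The authors deposited estimated counts per gene, not normalized. The counting model and annotation are not given in the sources used here. A second deposited table, with the authors' p-values, ratios, fold changes and group means, was not used.

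Counts were rounded to whole numbers and tested with edgeR 4.0.16 in R 4.3.3 (quasi-likelihood, two-sided, genotype only, upper-quartile scaling, minimum count 10 and total 15, Benjamini-Hochberg over 15826 genes). Standard errors were derived from each gene's F statistic and log2 fold change. DESeq2 1.42.0, other scalings and filters, thinning of the control counts, a length and GC offset, a replicate block and leaving out each sample were alternatives. The test was checked on simulated counts, where it recovered 50% of 200 genes changed 4-fold, with 5 false calls. Positions, lengths and GC came from GENCODE M21 and promoters from RefSeq. A count of 0 allows up to 3 counts, or 0.0825 to 0.0874 CPM in controls and 0.256 to 0.655 CPM in mutants, for counting error only. The members and lists were chosen with earlier results of these data known. Named genes were all members, Fgfr1, and the 2 genes of smallest p per list, since none passed the adjusted threshold. Of the genes this rule selects, 2 are not reported here. Gsk3a, Akt1, Akt2, Foxo6, Insr and Pappa, and the overlapping genes, were named after their values were seen.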

Additional observations from a re-analysis of the deposited data

How the results depend on the processing

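No member passed an adjusted p of 0.05 under any of the 15 alternatives. The number past the unadjusted threshold was 2 with DESeq2, 2 with the replicate number as a block, and 0 to 2 with each sample left out. Igf1 was the member past it, alone or with another, in the reported fit and in 7 alternatives, but Igf2r, lower, took its place with TMM, with total counts alone and without control 1, and Igf2, higher, with the offset. The median log2 fold change of the members was -0.050 with TMM, -0.23 with total counts alone, -0.029 with the replicate block, -0.059 with the length and GC offset, and -0.20 to 0.17 with each sample left out. Same-numbered samples correlated at only 0.064, 0.017 and 0.076 in their deviations, so the numbers were not taken as pairs; with the block, 508 genes in all passed the adjusted threshold, against 1074 without it. The number of genes of the lists past an adjusted p of 0.05 was 3 with total counts alone, 8 with DESeq2 and 0 to 1 with each sample left out. The difference in the Igfbp5 share was 0.757 points with the length and GC trend and -5.67 to 2.10 with each sample left out, and that in the Igf1 share was -10.4 and -5.17 to 2.69. The sign turned for Igfbp4 (-0.12) and Igfbp6 (-0.13) with total counts alone, for Igfbp6 (-0.016) and Rln1 (-1.94) with the replicate block, and for Igf1 (-0.016), Igfbp5 (0.19), Igfbp6 (-0.22) and Insl6 (-0.027) with the offset. With each sample left out, the log2 fold change ran from -0.35 to 0.024 for Igfbp3, from -0.12 to 0.35 for Igfbp4, from -0.41 to 0.25 for Igfbp5, from -0.55 to 0.51 for Igfbp6 and from -0.26 to 0.090 for Igfbp7, and, over the mutant samples only, from -6.40 to 1.44 for Rln1, which was not tested without a control sample. The sign turned for each of these. Over all genes, calls at the adjusted threshold ran from 76, without control 3, to 1609, with DESeq2. Apart from the settings' own construction, the cause of these moves was not tested. Mutant 1, at 5276568 counts, limits low genes most, and 3 samples a group limit all of these comparisons.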
